A study of Mus musculus with 9 samples.

Results

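The transcripts described here come from 9 genes that mark the onset of the primitive streak and of mesoderm in the mouse embryo, chosen by name out of 35896 genes: T, Mixl1, Eomes, Evx1, Mesp1, Gsc, Cdx2, Fst and Tbx6. Poly-A RNA was sequenced from E14 cells, a single established line of mouse embryonic stem cells, in 3 groups of 3 libraries numbered replicates 1 to 3. Control +LIF2i cells stayed in self-renewal medium, which holds LIF, a cytokine that sustains self-renewal, with the MEK inhibitor PD0325901 and the glycogen synthase kinase 3 beta inhibitor CHIR99021. Control -LIF2i cells had spent 72 h without LIF and both inhibitors, and CK666 -LIF2i cells had spent the same 72 h without them but with 80 µM CK666, which inhibits Arp2/3, the complex that starts new branches on actin filaments. All groups were kept in medium with serum. The CK666 stock was made in DMSO. Whether the controls were given DMSO is not stated in the labels, so CK666 and its solvent cannot be told apart. The labels describe the withdrawal as spontaneous differentiation, with no factor added to direct cells to mesoderm.

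The primitive streak is the furrow of the gastrulating embryo through which epiblast cells leave the epithelium to become mesoderm and definitive endoderm. Its genes are switched on by Nodal and activin signals, which act through Smad2 and Smad3 with Foxh1, and by WNT signals, which act through beta-catenin with the TCF and LEF factors. BMP4 from the neighbouring extraembryonic tissue raises the WNT and Nodal signals. CHIR99021 itself activates the WNT pathway by blocking the kinase that marks beta-catenin for destruction, so self-renewal medium is not free of WNT pathway activity.

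RefSeq promoter windows, from 250 bases before to 50 bases after a gene's start in the mouse build GRCm38.p6, were available for 7 of the 9 genes, all but Mixl1 and Fst. The windows of Eomes and Gsc are shown because these transcripts had lower counts together in the CK666 libraries, and that of T because it is the defining gene of the streak. They are given 5′ to 3′ on the strand of the gene, without bases inside the annotated gene, and capitals mark a match to TATAAA, the core of the TATA box. Eomes lies at chr9:118477939-118478188 on the plus strand, Gsc at chr12:104473331-104473486 on the minus strand and T at chr17:8434173-8434422 on the plus strand.
Eomes: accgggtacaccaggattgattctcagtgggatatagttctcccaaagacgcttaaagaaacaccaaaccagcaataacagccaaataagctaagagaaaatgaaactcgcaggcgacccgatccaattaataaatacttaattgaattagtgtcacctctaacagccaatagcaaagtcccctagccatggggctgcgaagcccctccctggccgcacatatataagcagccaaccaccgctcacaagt
Gsc: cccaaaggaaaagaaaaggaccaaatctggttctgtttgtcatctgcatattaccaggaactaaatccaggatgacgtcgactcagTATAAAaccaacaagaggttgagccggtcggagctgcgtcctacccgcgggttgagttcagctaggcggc
T: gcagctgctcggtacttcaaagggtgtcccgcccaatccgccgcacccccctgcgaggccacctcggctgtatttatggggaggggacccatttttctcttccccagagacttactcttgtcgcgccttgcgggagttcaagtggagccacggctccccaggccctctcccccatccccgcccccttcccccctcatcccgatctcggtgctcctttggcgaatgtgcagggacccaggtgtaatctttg
The printed stretches held 46.4% G and C in Eomes and 62.8% in T. In the whole windows, on both strands, 4 motifs were searched: CTTTGAT, bound by TCF and LEF factors, TGTGGATT, bound by Foxh1, TCACACCT, bound by T-box factors, and TATAAA. None of the matches below overlapped another. CTTTGAT matched in Mesp1, at positions -31 to -25 from the RefSeq start, as against 3.73% of 32851 mouse promoters. Of the 250 bases before that start, 198 lie inside the annotated Mesp1 gene, and this match is among them. TCACACCT also matched in Mesp1, at positions 5 to 12, as against 1.28% of promoters. TATAAA matched in Gsc at -164 to -159 and in Tbx6 at -43 to -38, as against 13.6% of promoters. TGTGGATT, found in 0.855% of promoters, matched in none of the 7. A match describes letters in a window and shows no binding.

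The library totals ran from 16894327 to 22550952 estimated counts, so that 3 counts, taken as the detection floor, corresponded to 0.133 to 0.178 CPM, counts scaled by library size. The replicate 1 libraries stood apart in all groups. The 2nd principal component of log2 CPM, with 23.3% of the variance, separated them from replicates 2 and 3, and they held counts above 0 for 15637 to 17551 genes against 18080 to 18636 in the others. Each group held 1 of them, so a difference within replicate 1 rests on single libraries and has no spread, and results are also given without it where that changes a call. The sum over 5 naive pluripotency markers was 1248 to 2723 TPM (a level per transcript length on a scale of fixed library sum) with LIF2i, 144 to 252 in control -LIF2i and 232 to 288 in CK666 -LIF2i. The sum over 4 markers of formative epiblast, the state that precedes gastrulation, was 45.2 to 69.4, 401 to 1133 and 231 to 755 TPM in the same order. The naive marker sums with and without LIF2i did not overlap.

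All 9 genes were low. By mean TPM over the 9 libraries Eomes was highest, at 3.84, a level above that of 51.9% of protein-coding genes. Fst followed at 2.79, Gsc at 1.27, Tbx6 at 0.697, T at 0.481, Mixl1 at 0.403, Cdx2 at 0.148, Evx1 at 0.122 and Mesp1 at 0.0902, the last above 26.9% of protein-coding genes. With LIF2i, Eomes ranged from 3.02 to 8.31 TPM and Fst from 2.42 to 4.62 TPM, so these neighbours overlapped, and Gsc at 1.29 to 3.11 TPM overlapped both. In control -LIF2i, T ranged from 0.302 to 2.82 TPM, which spans the levels of Gsc and Tbx6 in that group and overlaps those of Mixl1, 0.265 to 0.788 TPM. Eomes, Evx1 and Fst share 2.84%, 2.54% and 2.51% of their exonic bases with the antisense genes Gm33460, Evx1os and Gm47040, and reads of such overlaps cannot be told apart, since counting by strand is not stated.

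**Figure D1:**
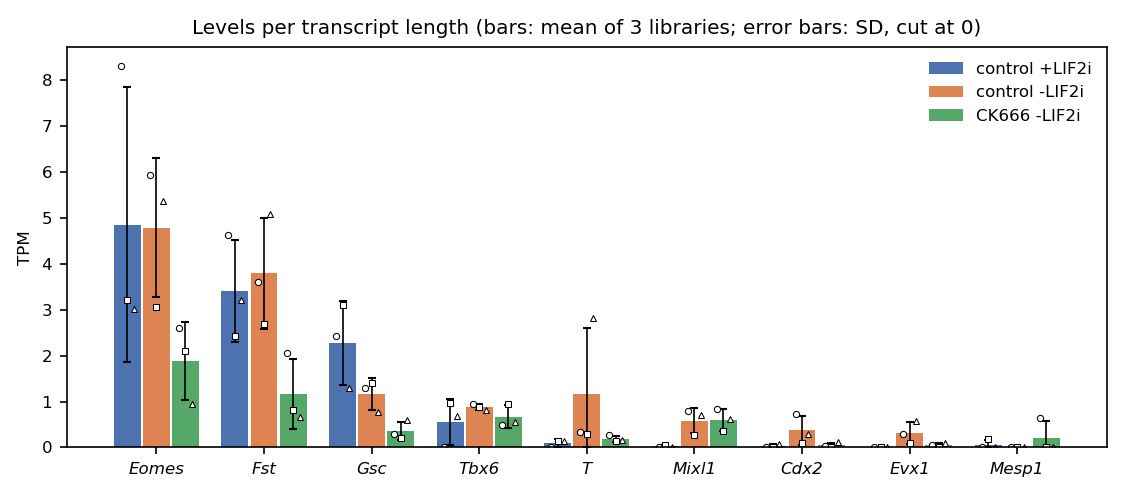
Levels in TPM on a linear axis for the 9 genes, ordered by their mean over all libraries, with bars for the mean of 3 libraries in each group, error bars for the SD (drawn down to 0 at the lowest) and points for single libraries. Eomes and Fst had the highest levels and the CK666 bars of Eomes, Fst and Gsc lay under both control bars.

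Only 5 of the 9 genes, Mixl1, Eomes, Gsc, Fst and Tbx6, passed the filter on low counts and were tested, in a fit of 14648 genes. T, Evx1, Mesp1 and Cdx2 did not pass, and for them counts are given first, with the test from a fit without the filter, one of the alternatives. The comparisons were fitted with edgeR's quasi-likelihood test with the replicate number as a block, and calls were made at an adjusted p (Benjamini-Hochberg) under 0.05. Each comparison was refitted in 19 ways. Errors of group means are SD with n = 3, and those of log2 fold changes are standard errors (SE).

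**Figure D2:**
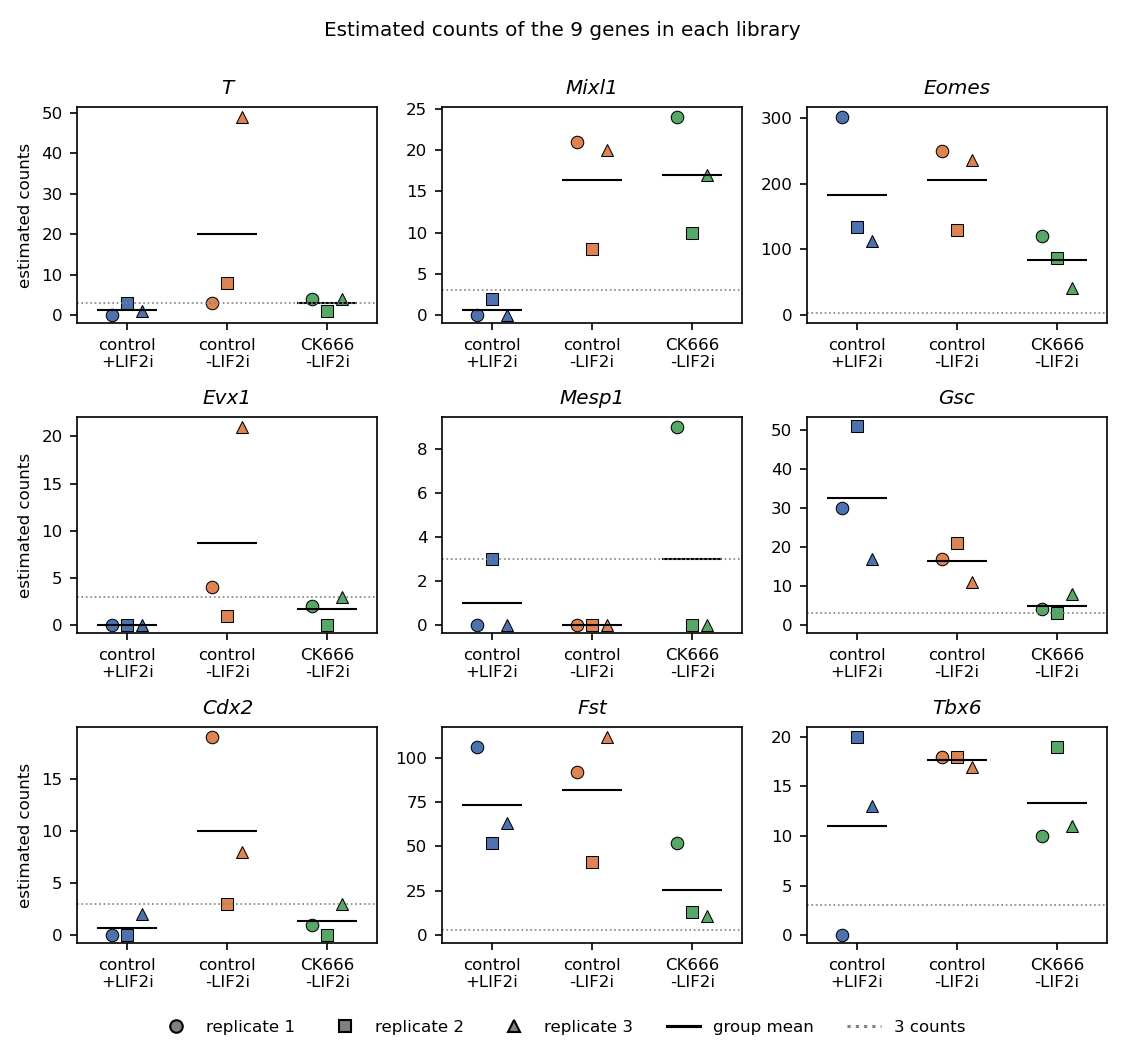
Estimated counts of each of the 9 genes in each library, on linear axes of different height, with circles, squares and triangles for replicates 1, 2 and 3, a line at the group mean and a dotted line at 3 counts. T and Evx1 were high in 1 library of control -LIF2i, replicate 3, whereas Mixl1 was above 3 counts in every library without LIF2i.

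The comparison of control -LIF2i with control +LIF2i shows what withdrawal alone did to these genes. Mixl1 rose, T, Evx1 and Cdx2 gained counts from a level at or near 0, and Eomes, Gsc, Fst and Tbx6 did not differ beyond the spread between replicates. Thus 1 of the 5 tested genes was called, against 40.7% of all 14648 genes tested, 21.1% called higher and 19.7% lower. Without the replicate block Mixl1 was again the 1 gene called (adjusted p 0.0130), against 24% of all genes, 13.1% higher and 10.9% lower. Mixl1 passed the filter through the libraries without LIF2i alone, so its place among the tested genes presupposed a difference.

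Mixl1 is a paired-type homeobox factor of the nascent streak that acts in mesoderm and endoderm formation. It lies on chromosome 1 at 180693043 to 180697034 on the minus strand, with 1 annotated transcript. With LIF2i it had 0, 2 and 0 counts in replicates 1, 2 and 3, and after withdrawal 21, 8 and 20. The groups did not overlap, and all libraries with LIF2i lay under the floor. The normalised level was 0.0348 ± 0.0604 CPM (SD, n = 3) with LIF2i and 0.836 ± 0.366 CPM (n = 3) without. The log2 fold change was 4.21 (SE 1.08, 95% interval 1.79 to 6.64, edgeR adjusted p 0.0124), higher in 3 of 3 pairs. From the summed counts, 49 against 2, the ratio was 24.6, with an exact 95% interval of 6.47 to 209 that covers counting error only. Mixl1 was called in 16 of 19 alternatives, with adjusted p from 0.00308 to 0.139. The call was lost without the replicate 3 libraries (adjusted p 0.139), without control +LIF2i replicate 3 alone (0.0622) and without control -LIF2i replicate 3 alone (0.0571), and it held without replicate 1 (log2 fold change 3.50, adjusted p 0.0245).

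T, also called brachyury, is the T-box factor that defines the streak and drives mesoderm formation. It lies on chromosome 17 at 8434423 to 8442496 on the plus strand. Its counts were 0, 3 and 1 with LIF2i and 3, 8 and 49 without. Replicate 3 held 81.7% of the counts of control -LIF2i, and the other 2 libraries of that group were at and just above the floor. The groups touched at 3 counts. In sum 60 counts stood against 4, a ratio of 15.1 with a counting interval of 5.60 to 57.2, and without replicate 3 the sums were 11 and 3, a ratio of 3.80 with an interval of 1.00 to 21.2.

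Evx1, a homeobox factor of the posterior streak, lies on chromosome 6 at 52313498 to 52318378 on the plus strand. It had no count in any library with LIF2i and 4, 1 and 21 counts in control -LIF2i. Replicate 3 again held most of them, 80.8%. Against a floor of 3 counts over the group, the summed 26 counts were at least 8.72-fold higher, and the 5 counts left without replicate 3 were at least 1.73-fold higher. T and Evx1 thus shared their highest library. In the edgeR fit without the filter neither was called, with an adjusted p of 0.0689 for T (log2 fold change 3.20, SE 1.24) and 0.0536 for Evx1, whose fitted fold is not given because one group was at 0.

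Cdx2, a caudal-type homeobox factor, acts in the posterior streak and in trophoblast. It lies on chromosome 5 at 147300805 to 147307270 on the minus strand. Its counts were 0, 0 and 2 with LIF2i and 19, 3 and 8 without, so the groups did not overlap. The highest library here was replicate 1, with 63.3% of the group's counts. The summed 30 counts against 2 gave a ratio of 15.1 with a counting interval of 3.83 to 130, and without replicate 1 the 11 counts against 2 gave 5.52 with an interval of 1.20 to 51.2. In the edgeR fit without the filter Cdx2 was not called (adjusted p 0.0851), at a log2 fold change of 3.91 (SE 1.59). The sum over 8 trophoblast markers was 6.53 to 8.46 TPM with LIF2i and 4.71 to 7.81 TPM in control -LIF2i. Within that list 4 genes were tested. Krt7, a keratin, rose (2.32, SE 0.75, edgeR adjusted p 0.0340, and 0.136 without the block), from 0, 0.691 and 0.396 TPM to 1.32, 1.86 and 2.81 TPM, and it too passed the filter only with the libraries without LIF2i. Tfap2a fell (-2.16, SE 0.72, adjusted p 0.0377, and 0.0951 without the block), and Gata3 and Ascl2 were not called. Of the 4 under the filter, Plac1 went from 0 in all libraries to 1.19, 0 and 0.538 TPM, Tpbpa was at 0 throughout the study, and Prl3d1 and Elf5 had no more than 2 and 5 counts in any library. The part of such cells in the counts of Cdx2 was not tested.

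Mesp1, a basic helix-loop-helix factor of the earliest cardiac and cranial mesoderm, lies on chromosome 7 at 79792241 to 79793788 on the minus strand. It had 0, 3 and 0 counts with LIF2i and 0 in every control -LIF2i library, so it was not detected above the floor in either group. In a library of 18014829 counts, the smallest of control -LIF2i, a count of 0 allows up to 0.167 CPM.

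Eomes, the T-box factor of the streak that directs definitive endoderm and cardiac mesoderm and is also used by trophoblast, lies on chromosome 9 at 118478212 to 118486132 on the plus strand. It was already expressed in self-renewal, with 302, 134 and 113 counts, and had 250, 129 and 236 counts after withdrawal. The groups overlapped almost wholly. The level was 9.57 ± 4.56 CPM with LIF2i and 10.5 ± 3.31 CPM without (SD, n = 3 each), and the log2 fold change was 0.21 (SE 0.35, interval -0.57 to 1.00, edgeR adjusted p 0.66). Of its counts over all libraries, 83.7% were assigned to Eomes-201 and 11.1% to Eomes-202.

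Fst encodes follistatin, a secreted protein that binds activin and keeps it from its receptors, and lies on chromosome 13 at 114452290 to 114458951 on the minus strand. Its counts were 106, 52 and 63 with LIF2i and 92, 41 and 112 without. The level was 3.92 ± 1.25 CPM and 4.20 ± 1.97 CPM (SD, n = 3 each), and the log2 fold change was 0.09 (SE 0.44, interval -0.91 to 1.08, edgeR adjusted p 0.90). As with Eomes, 2 of 3 pairs were lower without LIF2i and only replicate 3 was higher. Leaving replicate 3 out of all groups turned both fold changes, to -0.19 for Eomes and -0.29 for Fst, and leaving out control -LIF2i replicate 3 alone turned them to -0.28 and -0.47. Fst-202, a protein-coding transcript, held 53.0% of the counts, and the retained-intron transcripts Fst-203 and Fst-206 held 4.90% and 12.7%.

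Gsc, goosecoid, a homeobox repressor of the anterior streak and organizer, lies on chromosome 12 at 104471209 to 104473330 on the minus strand. Its counts were 30, 51 and 17 with LIF2i and 17, 21 and 11 without. Every pair was lower without LIF2i, but the groups overlapped. The level was 1.72 ± 0.845 CPM and 0.835 ± 0.248 CPM (SD, n = 3 each), and its log2 fold change was -1.01 (SE 0.61, interval -2.37 to 0.36, edgeR adjusted p 0.22).

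Tbx6, the T-box factor of presomitic mesoderm, lies on chromosome 7 at 126781483 to 126785560 on the plus strand. It had 0, 20 and 13 counts with LIF2i and 18, 18 and 17 without. The even counts after withdrawal stood beside a single library at 0, control +LIF2i replicate 1. The log2 fold change was 0.93 (SE 0.90, interval -1.09 to 2.96, edgeR adjusted p 0.44), and without replicate 1 the summed counts were 35 against 33.

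Control -LIF2i replicate 2 had the lowest count of its group for 5 of the 9 genes, Mixl1, Eomes, Evx1, Cdx2 and Fst. The libraries are bulk RNA, so fewer cells that express a gene and less RNA per cell cannot be told apart.

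The comparison of CK666 -LIF2i with control -LIF2i asks what the Arp2/3 inhibitor changed during withdrawal. Mixl1 had 49 counts in sum without CK666 and 51 with it, whereas Eomes, Gsc and Fst had lower counts with CK666 in 3 of 3 pairs and T, Evx1 and Cdx2 had 4 to 9 counts in sum where the controls had 26 to 60. None of the 5 tested genes was called by edgeR, against 2.05% of all genes tested, 1.15% called higher and 0.894% lower. At an unadjusted p under 0.05 there were 3 of the 5, Eomes, Gsc and Fst, against 2890 of 14648 genes (19.7%). Of these, Gsc was tested through the control groups alone, where it is high. DESeq2 called 2, Eomes and Fst, against 7.78% of all genes, and limma voom called 0, against 3.65%. All 4 formative epiblast markers were also lower with CK666 in 3 of 3 pairs and at an unadjusted p under 0.05, and 1 of them, Fgf5, was called (log2 fold change -3.16, SE 0.43, edgeR adjusted p 0.0210, and 0.260 without the block). The part of that shift in the counts of the 9 genes was not tested.

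Fst had 52, 13 and 11 counts with CK666 beside 92, 41 and 112 in the controls. The groups overlapped, since CK666 replicate 1 lay above control replicate 2, and that CK666 library held 68.4% of its group's counts. The level was 1.27 ± 1.03 CPM with CK666 (SD, n = 3) against 4.20 ± 1.97 CPM (n = 3). The log2 fold change was -1.80 (SE 0.48, interval -2.88 to -0.73, edgeR adjusted p 0.084). Without the replicate 1 libraries it was -2.48 and was called (adjusted p 0.0142), and over all alternatives the adjusted p ran from 0.0082 to 0.575, with 4 of 19 called.

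Eomes had 121, 87 and 42 counts with CK666 beside 250, 129 and 236. The groups did not overlap. The level was 4.34 ± 1.77 CPM against 10.5 ± 3.31 CPM (SD, n = 3 each), and the log2 fold change was -1.31 (SE 0.36, interval -2.12 to -0.49, edgeR adjusted p 0.091). It was called in 3 of 19 alternatives, with adjusted p from 0.0103 to 0.582. Both Eomes and Fst were called when control +LIF2i replicate 1, which is in neither group, was left out of the fit, with adjusted p 0.0345 and 0.0305.

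Gsc had 4, 3 and 8 counts with CK666 beside 17, 21 and 11, again without overlap. The level was 0.269 ± 0.155 CPM against 0.835 ± 0.248 CPM (SD, n = 3 each). The log2 fold change of -1.56 (SE 0.69, interval -3.11 to -0.02, edgeR adjusted p 0.25) was called in 0 of 19 alternatives.

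Mixl1 had 24, 10 and 17 counts with CK666 beside 21, 8 and 20. In both groups replicate 2 was lowest. The level was 0.884 ± 0.291 CPM against 0.836 ± 0.366 CPM (SD, n = 3 each), and the log2 fold change was 0.11 (SE 0.74, interval -1.57 to 1.78, edgeR adjusted p 0.96). That interval is wide enough to hold a 2-fold change in either direction. From summed counts of 51 and 49 the ratio was 1.06, with a counting interval of 0.704 to 1.61. Tbx6 had 10, 19 and 11 counts beside 18, 18 and 17, and its log2 fold change was -0.47 (SE 0.86, interval -2.40 to 1.47, edgeR adjusted p 0.81).

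T had 4, 1 and 4 counts with CK666. The sum of 9 against 60 gave a ratio of 0.153 with a counting interval of 0.0668 to 0.311, but without replicate 3 it was 5 against 11, a ratio of 0.460 with an interval of 0.125 to 1.44. For Evx1 the counts were 2, 0 and 3, a ratio of 0.196 (0.0589 to 0.520) over all libraries and 0.405 (0.0385 to 2.47) without replicate 3. For Cdx2 they were 1, 0 and 3, a ratio of 0.136 (0.0349 to 0.386), which became 0.291 (0.0522 to 1.10) without replicate 1. The counting intervals that held only values under 1 came to hold 1 for these 3 genes once the highest control library was left out with its partners. In the edgeR fit without the filter none of them was called: the log2 fold change was -2.01 for T (SE 1.17, adjusted p 0.529), -2.03 for Evx1 (SE 1.55, adjusted p 0.710) and -3.09 for Cdx2 (SE 1.47, adjusted p 0.378). At an unadjusted p, these were 0.103, 0.206 and 0.0502. Mesp1 had 9, 0 and 0 counts, all in CK666 replicate 1. In the trophoblast list, to which Cdx2 and Eomes also have ties, the summed level was 9.21 to 11.9 TPM with CK666 and 4.71 to 7.81 TPM in control -LIF2i; the part of such cells in the result was not tested.

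**Figure D3:**
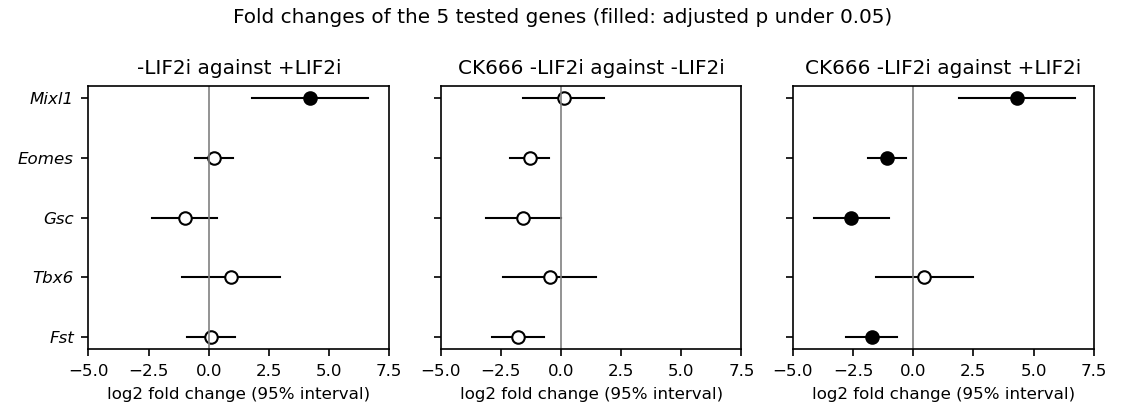
Log2 fold changes of the 5 tested genes with their 95% intervals in the 3 comparisons, filled where the edgeR adjusted p was under 0.05. Mixl1 was near 4 in both comparisons with self-renewal and near 0 between the withdrawn groups, and Eomes, Gsc and Fst lay under 0 in both comparisons that hold CK666.

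Against self-renewal, CK666 -LIF2i cells had higher Mixl1 and lower Eomes, Gsc and Fst. These were 4 of the 5 tested genes, against 36.9% of all genes tested, 19.8% called higher and 17.1% called lower. As in the withdrawal comparison, Mixl1 was tested only because of its counts without LIF2i, so its call was presupposed. Gsc reached the filter's level in 3 libraries of each control group and in 0 of CK666, so its lower call was presupposed too, and without these genes the count is 2 of 3. This comparison shares its CK666 libraries with the one above and its +LIF2i libraries with the withdrawal comparison, so it is no independent support for either. Mixl1 went from 0.0348 ± 0.0604 to 0.884 ± 0.291 CPM (SD, n = 3 each), a change of 4.32 on the log2 scale (SE 1.07, edgeR adjusted p 0.0122). Gsc went from 1.72 ± 0.845 to 0.269 ± 0.155 CPM, a change of -2.57 (SE 0.68, adjusted p 0.0166). Fst went from 3.92 ± 1.25 to 1.27 ± 1.03 CPM, a change of -1.72 (SE 0.47, adjusted p 0.0191). Eomes went from 9.57 ± 4.56 to 4.34 ± 1.77 CPM, a change of -1.09 (SE 0.36, adjusted p 0.0384). Each had its direction in 3 of 3 pairs, and Tbx6 was not called (0.46, SE 0.89, adjusted p 0.71). Without the filter T, Evx1, Cdx2 and Mesp1 were not called either (edgeR adjusted p 0.640, 0.258, 0.801 and 0.909). In CPM the groups did not overlap for any of the 4 called genes. These genes were picked by their calls, and the share of all genes without overlap is not given, so this adds no support. For Eomes the nearest libraries were CK666 replicate 1 at 5.73 CPM and control +LIF2i replicate 3 at 6.86 CPM, and for Fst they were CK666 replicate 1 at 2.46 CPM and control +LIF2i replicate 2 at 2.72 CPM.

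The calls of Eomes and Fst depended on the replicate block, since without it their adjusted p was 0.108 and 0.0978, whereas Mixl1 and Gsc were called without it (0.0135 and 0.0173). Against these 2 of 5 stood 20.2% of all genes called without the block, 12.1% higher and 8.1% lower. Mixl1 was called in 17 of 19 alternatives and lost without replicate 3 (adjusted p 0.128) or control +LIF2i replicate 3 (0.0601). Gsc was called in 15 and lost without replicate 2 (0.208), control +LIF2i replicate 2 (0.0725), CK666 replicate 1 (0.0684) or CK666 replicate 2 (0.102). Fst was called in 12 and lost without replicate 2 (0.0903), replicate 3 (0.107), replicate 2 or 3 of control +LIF2i (0.0605 and 0.0505) or replicate 2 or 3 of CK666 (0.0641 and 0.0787). Eomes was called in 10 and lost without replicate 1 (0.122), replicate 3 (0.113), any library of control +LIF2i (0.0677 to 0.108), control -LIF2i replicate 1 (0.0503) or replicate 1 or 3 of CK666 (0.125 and 0.155).

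**Figure D4:**
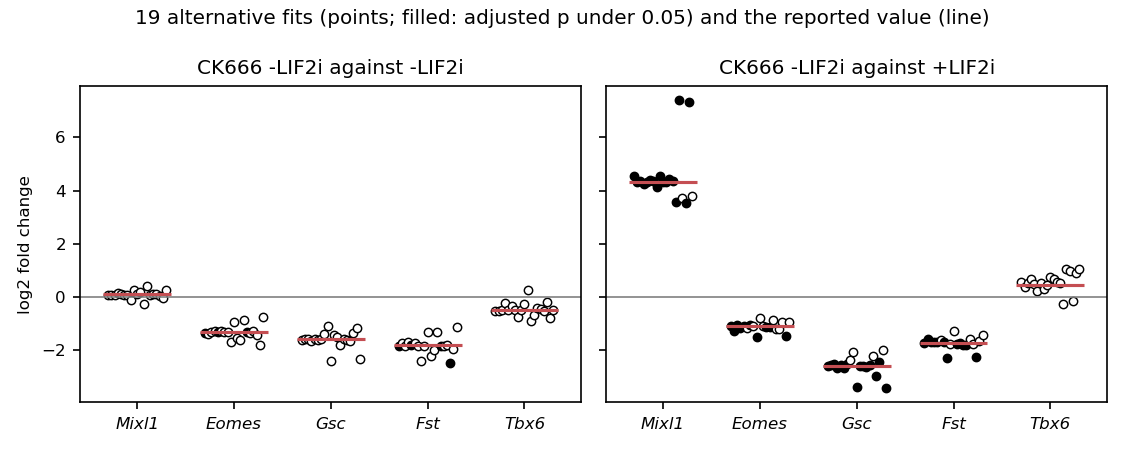
Log2 fold changes of the 5 tested genes under the 19 alternative fits, filled where the adjusted p was under 0.05, with a line at the reported value, for CK666 -LIF2i against control -LIF2i and against control +LIF2i. Eomes, Gsc and Fst stayed under 0 in all 19 fits of both comparisons, while few of their points are filled in the first.

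Other genes of the pathways that act in the streak were read from 5 lists. Of 11 streak signals, the secreted factors and their modulators, 8 passed the filter, and after withdrawal 4 rose and 3 fell, against 21.1% called higher and 19.7% lower over all genes tested. Their median log2 fold change was 0.27, against 0.01 over all genes tested. Fgf8, a fibroblast growth factor that cells need to move away from the streak, had 0, 12 and 8 counts with LIF2i and 146, 24 and 166 without (log2 fold change 3.69, SE 0.95, edgeR adjusted p 0.0130, called in 16 of 19 alternatives). Wnt3, the WNT ligand that starts the streak, had 3, 17 and 10 counts and then 162, 22 and 156 (3.27, SE 0.82, adjusted p 0.0115, called in 15 of 19). With LIF2i only 1 library of Fgf8 and 2 of Wnt3 reached the filter's level, which 3 libraries must reach, so both were tested through the libraries without LIF2i. A rise in both was thus presupposed, and they are 2 of the 4 signals that rose. In both, control -LIF2i replicate 2 was the lowest of its group, as it was for Mixl1, Eomes and Fst. Both calls were lost without the replicate 3 libraries (adjusted p 0.157 for Fgf8 and 0.128 for Wnt3), without control +LIF2i replicate 3 (0.0745 and 0.0611) and without control -LIF2i replicate 3 (0.0625 and 0.0678), and that of Wnt3 also without replicate 1 (0.0728). Lefty2, a secreted inhibitor of Nodal, fell from 15234, 4075 and 7141 to 2020, 909 and 1148 counts (-2.65, SE 0.16, called in 19 of 19).

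Of the 13 receptors and transducers, all tested, 7 rose and 2 fell after withdrawal, with a median of 0.41. These 9 called of 13 stood against 40.7% of all genes. Lef1, a nuclear partner of beta-catenin, had 20, 45 and 18 counts with LIF2i and 787, 330 and 314 without, which is 3.90 on the log2 scale (SE 0.46, edgeR adjusted p 0.00024). Tcf7, another such partner, changed by 1.39 (SE 0.12) and Acvr2b, an activin receptor, by 0.82 (SE 0.12), and all 3 were called in 19 of 19 alternatives. Of 18 other streak and mesoderm factors only 10 passed the filter, of which 1 rose and 2 fell, with a median of -0.74, so that 3 of 10 were called where 40.7% of all genes were. The one that rose was Etv2, a factor of blood and vessel progenitors (0, 2 and 3 counts, then 32, 32 and 85), and Cdx1, a caudal-type homeobox gene like Cdx2, fell (-5.47, SE 1.33). Etv2 passed the filter through control -LIF2i alone, and Cdx1 had 10 counts or more in all libraries with LIF2i but in none of control -LIF2i, so a difference in both was presupposed.

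Of 9 mesoderm surface and signalling genes 5 were tested, and 2 rose, the Notch ligand Dll3 (2.60, SE 0.33) and Cdh2, N-cadherin (1.84, SE 0.23, adjusted p 0.0774 without the block), with a median of 1.26. Of 8 activin and BMP antagonists and inhibins 7 were tested, of which 1 rose and 3 fell, with a median of 0.76. These 2 of 5 surface genes and 4 of 7 antagonists and inhibins stood against 40.7% of all genes called. Inhbb, which encodes a subunit of activin B, the kind of ligand that follistatin binds, went from 358, 241 and 207 counts to 0, 12 and 3 (-5.90, SE 0.68, edgeR adjusted p 0.00018). Inhbb was called in 19 of 19 alternatives, but of the groups compared here only the one with LIF2i had the 3 libraries that the filter needs, and the CK666 group had them as well.

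With CK666 in withdrawal, 1 of the 8 tested signals fell, and the receptors and transducers, the surface genes and the antagonists and inhibins had no call, against 2.05% of all genes. Lefty2 was the signal, with 996, 300 and 421 counts beside 2020, 909 and 1148 in the controls, and its log2 fold change was -1.31 (edgeR adjusted p 0.0116, SE 0.16). It was called in 12 of 19 alternatives and lost without the block (adjusted p 0.529) and without the libraries of replicate 2 (0.0809) or 3 (0.197). Among single libraries, it was lost without control -LIF2i replicate 2 (0.0718) or 3 (0.0775) and without CK666 replicate 2 (0.0858) or 3 (0.0598). Where no gene was called by edgeR, the smallest p was that of Smad2 among receptors and transducers (0.33, SE 0.11, adjusted p 0.145; 2 of 13 at an unadjusted p under 0.05), Dll3 among surface genes (-0.82, SE 0.30, adjusted p 0.174; 2 of 5) and Inhbb among the antagonists and inhibins (2.47, SE 0.69, adjusted p 0.0936; 1 of 7). Over all genes 19.7% had an unadjusted p under 0.05. DESeq2 called 0, 0 and 1 genes of these lists, against 7.78% of all genes, and limma voom called 0 in each, against 3.65%. Of the 8 tested signals DESeq2 called 3 and limma voom 2. Of the 10 tested other streak and mesoderm factors edgeR called 1, which was higher, and DESeq2 and limma voom called 2 each. Among those 10, Etv2 was tested through control -LIF2i alone, where it is high.

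**Figure D5:**
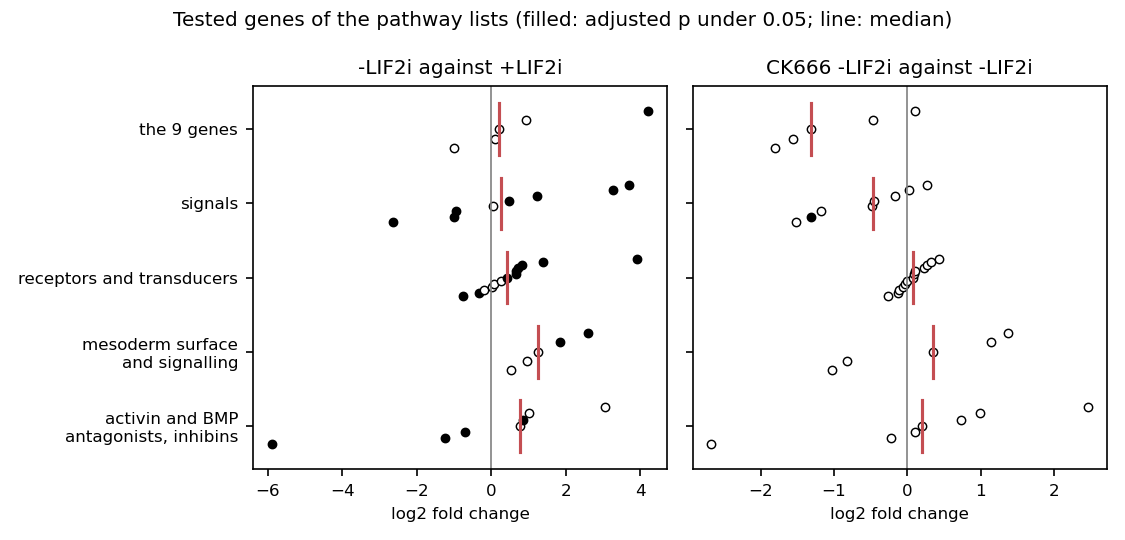
Log2 fold changes of the tested genes of the 9 genes and of 4 pathway lists for withdrawal and for CK666 in withdrawal, filled where the edgeR adjusted p was under 0.05, with a line at the list's median. Filled points are many for withdrawal and there is 1 for CK666, Lefty2 among the signals.

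Against self-renewal, the CK666 libraries had 3 of 8 tested signals higher and 2 lower, 6 of 13 receptors and transducers higher and 1 lower, and 1 of 10 other factors higher and 1 lower. Of 5 surface genes 3 were higher, and of 7 antagonists and inhibins 1 was higher and 2 were lower. Over all genes tested 36.9% were called, 19.8% higher and 17.1% lower. Lefty2 changed by -3.96 (SE 0.17), Wnt3 by 2.79 (SE 0.79) and Lef1 by 3.64 (SE 0.46). This comparison and that of withdrawal share their +LIF2i libraries, and Wnt3 and, among the surface genes called higher, Pdgfra were tested through the libraries without LIF2i. The other factor called lower was Cdx1. It reached the filter's level in 3 libraries with LIF2i, 0 of control -LIF2i and 1 of CK666, so its lower call was presupposed. Cdx1 was called in only 3 of 19 alternatives of this comparison.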

How the data were processed

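RNA was extracted from 9 cultures and poly-A RNA sequenced, per the labels' protocols. Each deposited table lists 119414 Ensembl transcripts and, per the file headers, gives length and effective length beside TPM and estimated counts. The estimated counts made by the authors are raw and can be fractions, because a read shared by transcripts is split. The TPM values made by the authors are divided by effective length and scaled within a library, so that genes can be compared. The effective length served only for an offset. Per the submitters' processing notes, the tools named are FastQC, cutadapt 1.8.1, kallisto and sleuth and the builds GRCh38 and mm10, with no role given. The kallisto version, the transcript release and the use of strand are not given in the sources used here.

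The 9 genes and all lists were chosen with earlier results of these data known. Transcripts were matched by identifier to GENCODE M21 (GRCm38), which found a gene for 116640 (97.7%). The others held 0.895% to 1.08% of a library's counts and were left out. A gene's estimated count, summed over its transcripts, was rounded. edgeR 4.0.16 in R 4.3.3 (TMM scaling, expression filter with a minimum count of 10, robust quasi-likelihood test, Benjamini-Hochberg adjustment over 14648 genes) was fitted to all 9 libraries, with 4 residual degrees of freedom, and tested on simulated data. CPM values are TMM-scaled. The replicate number was a block because the series' design text calls the biological replicates paired, and same-numbered libraries of different groups deviated together from their group means (r 0.303 to 0.653 across genes). The median r between libraries of different number was -0.367. Between replicates 2 and 3 of different groups it was 0.214 to 0.286, so part of the pattern is replicate 1 standing apart. A fit without the block was the alternative. The biological coefficient of variation (common) was 0.211 in the fit with the block and 0.356 without. Other alternatives were upper-quartile scaling, library totals alone, no filter, the length offset, voom of limma 3.58.1, DESeq2 1.42.0, and leaving out each replicate number or library. Replicates differed by more than counting noise (chi-square per gene 17.2 to 218), and p-values measure the spread between these libraries. Genes under the filter were tested in the alternative without it, with the same block. Intervals of count ratios are exact, and with the floor cover counting error only. In each pathway list and comparison up to 3 called genes with the largest absolute log2 fold change were named, or the one with the smallest p where none was called. Another gene named by the rule is left out here. Fit intervals used edgeR's total degrees of freedom.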

Additional observations from a re-analysis of the deposited data

How the results depend on the processing

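All alternatives were planned. Over the 5 tested genes, 3 comparisons and 19 alternatives, 243 of 285 values kept direction and side of the threshold, 25 lost the call, 7 gained it and 10 changed sign. For the pathway-list genes that the naming rule chose, 545 of 627 did, 79 lost the call, 3 gained it and 0 changed sign. The sign changes were all of uncalled values with libraries left out. The values with libraries left out ran from -0.28 to 0.51 for Eomes and -0.47 to 0.41 for Fst after withdrawal, from -0.26 to 0.40 for Mixl1 and -0.91 to 0.25 for Tbx6 under CK666 in withdrawal, and from -0.24 to 1.06 for Tbx6 under CK666 against self-renewal. Eomes after withdrawal became -0.19 without replicate 3 and -0.28 without control -LIF2i replicate 3, and Fst became -0.29 and -0.47. Mixl1 under CK666 in withdrawal became -0.03 without replicate 2, -0.26 without control -LIF2i replicate 2 and -0.12 without CK666 replicate 1. Tbx6 became 0.25 in that comparison without control -LIF2i replicate 1, and -0.13 against self-renewal without replicate 1 or -0.24 without control +LIF2i replicate 1.

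Without the replicate block, withdrawal called 3509 genes in place of 5967, CK666 in withdrawal 0 in place of 300 (1251 at an unadjusted p under 0.05) and CK666 against self-renewal 2966 in place of 5408, and of the 9 genes 1, 0 and 2 in place of 1, 0 and 4. For CK666 in withdrawal, no filter called 565 genes, the length offset 149, voom 535 and DESeq2 1140, and of the 9 genes no filter and DESeq2 called 2. Leaving out libraries gave 3099 to 6588 genes for withdrawal, 0 to 1811 for CK666 and 2413 to 6129 against self-renewal, with 0 to 1, 0 to 2 and 1 to 4 of the 9 genes. The cause of these shifts was not tested, beyond fewer libraries in the last kind. By CPM in place of TPM, 2 of the 9 genes had a mean above 1, in place of 3. With 3 libraries per group and counts under 60 for 7 of the 9 genes in every library, counting error alone leaves wide intervals.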

Other observations

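For each tested gene, the 3 protein-coding genes with the highest Pearson r of log2 CPM over the 9 libraries were listed as a description, with no p, since the points share groups and replicate numbers. For Mixl1 they were Fam69c (0.99), Tbc1d30 (0.98) and Piezo2 (0.98), which were also at or near 0 with LIF2i. For Eomes they were Zfp456 (0.95), Gm5141 (0.94) and Ppp1r13l (0.93). For Fst they were Fen1 (0.96), Lmln (0.96) and Ccne2 (0.95), for Gsc Hsp90b1, Grin1 and Cybc1 (0.91 each), and for Tbx6 Nectin4 (0.99), Carns1 (0.98) and Pcbd1 (0.98). Among the tested genes themselves, Eomes and Fst had an r of 0.91, Gsc had 0.42 with Eomes and 0.50 with Fst, and Mixl1 had -0.27 with Eomes and -0.31 with Fst. The sum over 8 endoderm markers, a fate that Eomes and Gsc also serve, was 7.77 to 36.4 TPM with LIF2i, 3.64 to 11.4 TPM in control -LIF2i and 6.34 to 11.7 TPM with CK666. The 36.4 TPM were those of control +LIF2i replicate 1, where Hnf4a alone had 31.5 TPM. Early neural markers summed to 5.36 to 9.70, 4.76 to 19.9 and 10.6 to 23.7 TPM in that order, and fibroblast markers to 6.34 to 13.4, 25.2 to 34.8 and 16.0 to 25.7 TPM. General pluripotency markers summed to 1980 to 2360, 1639 to 2233 and 1690 to 2184 TPM. The part of such cells in the results was not tested.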
